A study of Nasonia vitripennis with 79 samples.

Results

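The abdomens of triploid females of the parasitoid wasp Nasonia vitripennis were compared between generation F14 and generation F2 of the WOM line. This polyploid line was founded by knocking down, through RNA interference, a gene that acts in sex determination, and that gene is not analysed here. All 4 libraries labelled F14 triploid female abdomen and all 5 labelled F2 triploid female abdomen were taken, which makes 9 of the 79 libraries in the count table. Both groups carried 3 chromosome sets, came from the same line and were sampled 1 day after emergence. They differ by label in generation alone. Any difference in collection or handling between the 2 groups cannot be told apart from generation. For the difference tests, 10 libraries of triploid female heads at F14 and F2 and 10 libraries of diploid male abdomens at F15 and F3 were used, and 5 libraries of F14 diploid female abdomens were set beside them for their levels. All of these wasps belong to the WOM line too. Poly(A) RNA was sequenced without strand information stated in the labels, and the labels do not say how many wasps stand behind a library or whether libraries came from separate cultures. The p-values therefore measure only how these libraries vary, which may in part be technical.

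In Nasonia, as in other Hymenoptera, females develop from fertilised eggs, and the abdomen of a young female holds a pair of ovaries beside the gut, the fat body, the venom apparatus, muscle, ganglia and the body wall. Ovaries load growing eggs with messenger RNA for the first embryonic cell cycles, so an ovary-rich sample carries many transcripts for mitosis, chromosome segregation and DNA repair, together with germ plasm genes such as oskar and nanos. Muscle, nerve and epidermis are known by other genes, among them tropomyosin Tm1, the muscle Z-disc gene Zasp66, the synaptic vesicle calcium sensor Syt1 and the cuticle protein genes. In a sample of a whole body part, fewer cells of a type and less of its RNA per cell cannot be told apart.

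The F2 libraries stood apart from both the F14 triploid and the F14 diploid abdomens by their low sums of cuticle, nerve and muscle markers. The 46 cuticle genes summed to between 48.8 and 82.6 CPM (counts scaled to library size) in the F2 libraries, against 1782 to 5176 CPM in the F14 triploid libraries and 422 to 542 CPM in the F14 diploid abdomens. Of those 46 genes, 19 were at 0 in every F2 library and 40 were under 1 CPM in every F2 library. The 22 nerve and synapse genes summed to 33.5 to 54.3 CPM at F2, to 161 to 437 CPM at F14 and to 134 to 147 CPM in F14 diploids. The 4 muscle genes summed to 671 to 704 CPM at F2 and to 1879 to 4647 CPM at F14. In F14 diploids they summed to 1100 to 1333 CPM. Most of the muscle sum was Tm1, and of the 4 genes 2 rose and 1 fell. The yolk and fat body list did not set F2 apart from F14 triploids, with sums of 133 to 240 CPM and 181 to 424 CPM. Its sums in F14 diploids were 314 to 445 CPM. Triploid sums were scaled over the 9 libraries and diploid sums over all 79, so only wide gaps between them can be read. Germ line markers of an abdomen were present in both groups, while most cuticle genes were at or near 0 in the F2 libraries and the muscle and nerve sums were lower there than in either F14 group. The F2 libraries thus went against the label of an abdomen in their body wall markers, and whether they hold whole abdomens or a part of them, such as ovaries, cannot be told from the labels and files. Each fold change below is one between libraries as labelled. The eye opsin gene Lop1 stayed at or under 6.97 CPM in all 9 libraries, so no library held the level of a head. Every comparison below sets these F2 libraries against the F14 libraries, and the part of tissue share in each result was not tested except where a value is given.

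Total expected counts ran from 20.4 M to 24.2 M in the F2 libraries and from 16.9 M to 17.5 M in the F14 libraries. At least 5 CPM was reached by 7057 to 7163 genes at F2 and by 8248 to 8950 genes at F14. The biological coefficient of variation between libraries was 0.135 within F2 and 0.508 within F14, so the F14 libraries were the more uneven. Each test below fitted a single spread per gene over all its groups. Its standard errors and p-values therefore do not follow this gap. The first principal component held 86.3% of the variance of log2 CPM and separated the groups, with the F14 libraries ordered D86, D87, D90A and D89 from the far end towards F2. The closest pair within a group, D37 and D39, still differed well beyond sampling noise, with a chi-square of 7.57 per degree of freedom.

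**Figure D1:**
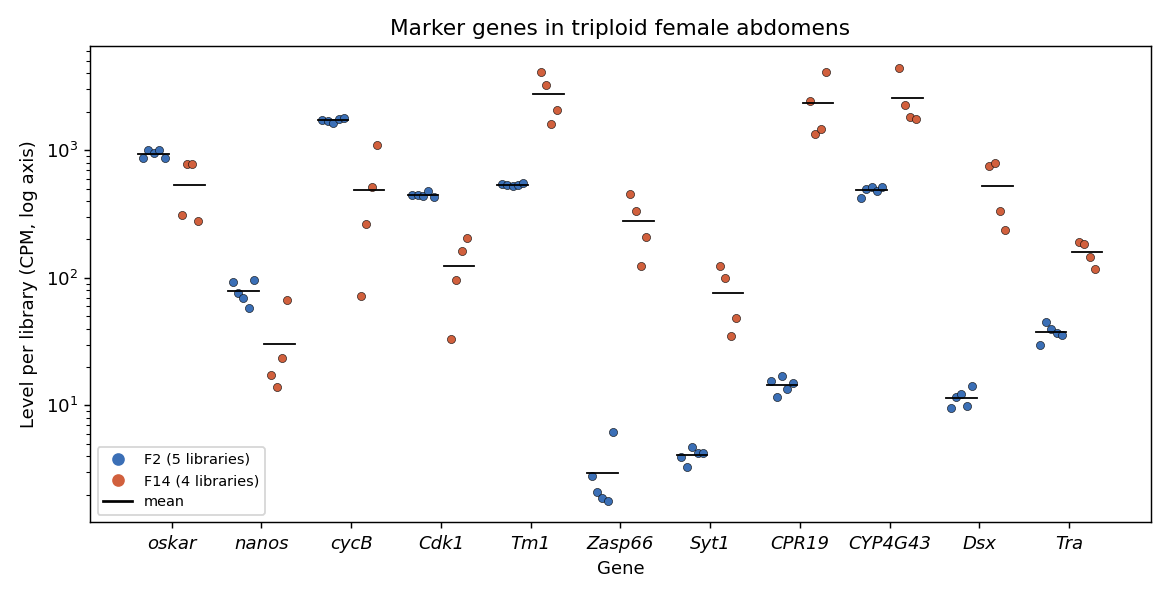
Level of 11 marker genes in each triploid female abdomen library, in CPM on a log axis, with F2 libraries (5) in blue, F14 libraries (4) in orange and the mean of each group as a bar. The muscle, nerve, cuticle and hydrocarbon genes and Dsx and Tra lie higher in every F14 library, Cdk1 and cycB lie lower in every F14 library, and nanos overlaps.

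Across the transcriptome, genes moved in both directions between F2 and F14. By edgeR's quasi-likelihood test, 6588 of 9978 genes tested passed a threshold of 0.05 on the Benjamini-Hochberg adjusted p, which is 66% of them. Of these, 3711 genes (37.2% of those tested) were higher and 2877 (28.8%) were lower at F14. With a change of at least 2-fold added to the threshold, 3074 genes were higher and 1042 were lower. The libraries of both generations did not overlap for 5944 genes, or 59.6% of those tested, with F14 above in 32.9% and below in 26.7%. The median log2 fold change over all genes tested was 0.05. Of the genes tested, 1387 were under 1 CPM in every F2 library and passed the filter on low counts mainly through their F14 level, so they could rise but hardly fall, and 1290 of them were called higher and none lower. Among the other 8591 genes, 2421 (28.2%) were higher and 2877 (33.5%) lower, with a median of -0.14. With the mean log2 CPM of oskar and nanos added to the fit as a covariate, 689 genes were called higher and 33 lower. No gene of the cell cycle, spindle, DNA repair, respiratory chain or cytosolic ribosome lists was called there. The same held for the immune and chemoreceptor lists, and of the nerve list 1 of 13 genes was called. That covariate did not overlap between the generations (6.25 to 7.11 at F14, 7.93 to 8.19 at F2), so such a fit rests on extrapolation. With so many genes called, membership among the called genes says little by itself, and the group counts below are to be read against these shares.

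The germ line list was split. Of its 6 tested members, nanos and oskar fell, Hb rose, and the list median was -0.47. The gene oskar, which nucleates germ plasm in the egg, was at 867, 1004, 949, 1012 and 872 CPM in the F2 libraries and at 313, 783, 775 and 278 CPM in F14 libraries D86, D87, D89 and D90A. All 4 F14 libraries lay below all F2 libraries, and D86 and D90A lay lowest. The log2 fold change of oskar was -0.81 ± 0.32 (SE) with an adjusted p of 0.047 in edgeR. That call was lost when any of the 5 F2 libraries or D86 was left out, with adjusted p values from 0.068 to 0.1, and when heads were added to the fit, with 0.072.

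The gene nanos, a translational repressor that protects the germ line, was at 57.9 to 96.4 CPM at F2 and at 17.4, 13.8, 23.5 and 67.1 CPM at F14. Library D90A reached into the F2 range and the other 3 did not. Its log2 fold change was -1.36 ± 0.43 with an adjusted p of 0.018, and it was -2.16 without D90A. Hb (hunchback), a gap gene whose messenger RNA is also supplied to the egg in this wasp, went the other way, from 23.4 to 63.5 CPM at F2 to 64.2, 61.9, 121 and 243 CPM at F14. Its log2 fold change of 1.52 ± 0.46 (adjusted p = 0.014) dropped to 0.88 with an adjusted p of 0.057 without D90A, and it also missed the threshold with heads added to the fit (0.15) and on TPM (0.069). The other maternal genes Egl, Gt and Cad did not pass the test, with log2 fold changes of -0.35, -0.59 and 0.58. Setting these levels beside the F14 diploid abdomens, on CPM scaled over all 79 libraries, oskar averaged 871 ± 57 (SD, n = 5) at F2, 455 ± 246 (n = 4) in F14 triploids and 635 ± 73 (n = 5) in F14 diploids. For nanos the means were 72.9, 25.3 and 83.1 CPM, so the F14 diploids lay with the F2 triploids.

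Genes of the cell cycle fell as a broad group. Of 16 tested members of the replication and cell cycle list, 11 fell and 1 rose, against 28.8% and 37.2% of all genes tested, and the list median was -0.90. Cyclin B gene cycB, which drives entry into mitosis with Cdk1, was at 1721, 1706, 1627, 1748 and 1782 CPM at F2. At F14 cycB was at 72.3, 263, 519 and 1106 CPM in D86, D87, D89 and D90A, so no library overlapped but the 4 spanned a wide range. Its log2 fold change was -1.81 ± 0.60 with an adjusted p of 0.022. The value was -2.67 without D90A, and the call was lost without D87 (0.06) or with heads in the fit (0.087). Cdk1 itself went from 431 to 481 CPM at F2 to 33.05, 96.96, 163 and 206 CPM at F14, a log2 fold change of -1.85 ± 0.42 (adjusted p = 0.0034). The F14 libraries took the same order for cycB and Cdk1, with D86 lowest and D90A highest.

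Regulators around this kinase fell with it. The anaphase activator fzy (the homolog of Cdc20) went from 472 to 528 CPM at F2 to 38.2, 90.5, 179 and 236 CPM at F14. Bora, an activator of mitotic kinases, went from 200 to 231 CPM to 14.3, 23.4, 48.6 and 119.03 CPM, the largest fall among genes with a symbol that met the level and overlap conditions, with a log2 fold change of -2.06 ± 0.53 (adjusted p = 0.0062) that was -2.97 without D90A. Melk and Gnf1, a large subunit of the DNA clamp loader, fell by 1.02 and 1.39 on the log2 scale. Scaled over all 79 libraries, Melk averaged 89.5 CPM in F2 triploids, 40.2 in F14 triploids and 66.1 in F14 diploids. E2f8 was the exception that rose, from a mean of 17.2 to 38.8 CPM, and its call was lost without D36, D40, D86, D87 or D89, with adjusted p values from 0.051 to 0.063. The genes Cdk2, cycD, Ctps and Plk4 did not pass the test, with log2 fold changes between -0.89 and -0.31.

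The chromosome segregation list moved the same way without an exception among the called genes. Of 8 tested members, 7 fell and none rose, and the list median was -1.28. Cenp-a, the histone H3 variant that marks centromeres, went from 75.5 to 83 CPM at F2 to 17.2, 24.3, 26.8 and 42.0 CPM at F14 (log2 fold change -1.51 ± 0.23, adjusted p = 3.1e-04). The cohesin subunits Smc1a and Smc3 fell by 1.31 and 1.25, and the condensin subunit Smc2 by 1.48, on the log2 scale. Smc2 fell by 2.16 when D90A was left out. Smc6, of a related complex that acts in repair, was at -0.34 and did not pass the test (adjusted p = 0.1). Scaled over all 79 libraries, Cenp-a averaged 72.7 CPM in F2 triploids, 23.1 in F14 triploids and 26.7 in F14 diploids. For Smc1a the means were 166, 60.1 and 133 CPM, and for Smc3 they were 132, 49.9 and 84.2 CPM.

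DNA repair genes fell in similar number. Of 14 tested members of 15, 11 fell and Rad51c rose, with a list median of -1.14. Hop2, which acts in pairing of homologous chromosomes in meiosis, was at 56.9 to 61.8 CPM at F2 and at 5.07, 12.3, 24.7 and 29.2 CPM at F14. The exonuclease gene WRNexo fell by 1.86 on the log2 scale (2.47 without D90A), from 50.7 to 79.9 CPM to between 8.52 and 35.2 CPM, and its call was lost with heads in the fit (adjusted p = 0.15). Xrcc2, a gene of recombination repair, was at 0.12 and did not pass the test, and Rad51c, of the same pathway, rose from a low mean of 2.12 CPM to 4.08 CPM. That call of Rad51c was lost without D37, D39, D40, D89 or D90A, with no filter, on TPM and with heads in the fit, with adjusted p values from 0.0504 to 0.27.

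Chromatin regulators fell too. Of 7 tested, 6 fell and 1 rose, with a median of -0.996. The maintenance DNA methyltransferase gene Dnmt1a was at 190 to 231 CPM at F2 and at 52.0, 58.6, 79.8 and 102.7 CPM at F14 (log2 fold change -1.50 ± 0.20, adjusted p = 1.7e-04). The Polycomb group gene Scm fell by 1.52, the histone deacetylase gene Rpd3 by 1.36 and the methyl-CpG binding gene Mbd by 0.98. The member that rose, Wds, was listed by its symbol and had 4 counts in all 5 F2 libraries together, against 5.70 to 54.9 CPM at F14. Dynein and dynactin genes, which move cargo along microtubules, gave 4 falls and no rise among 11 tested, with a median of -0.35. The number of falls depended on the setting: it was 7 under DESeq2, 9 on TPM, 9 with F14 diploids in the fit and 8 without D89. For DLC-A, 1 of those 4, the call was lost when D37, D38 or D39 was left out, with adjusted p values from 0.052 to 0.061.

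Other genes with the largest falls had roles outside the cell cycle. The translation-inhibiting kinase gene Eif2ak1 went from between 81.96 and 90.4 CPM at F2 to between 13.8 and 42.4 CPM at F14. Among genes of the large environmental response families, the cytochrome P450 gene CYP6CK3 fell from 8.86 to 11.9 CPM to between 0.581 and 4.88 CPM, and the protease homolog SPH90 from 56.5 to 69.3 CPM to between 4.68 and 25.9 CPM. The call of SPH90 was lost with heads in the fit (adjusted p = 0.052).

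**Figure D2:**
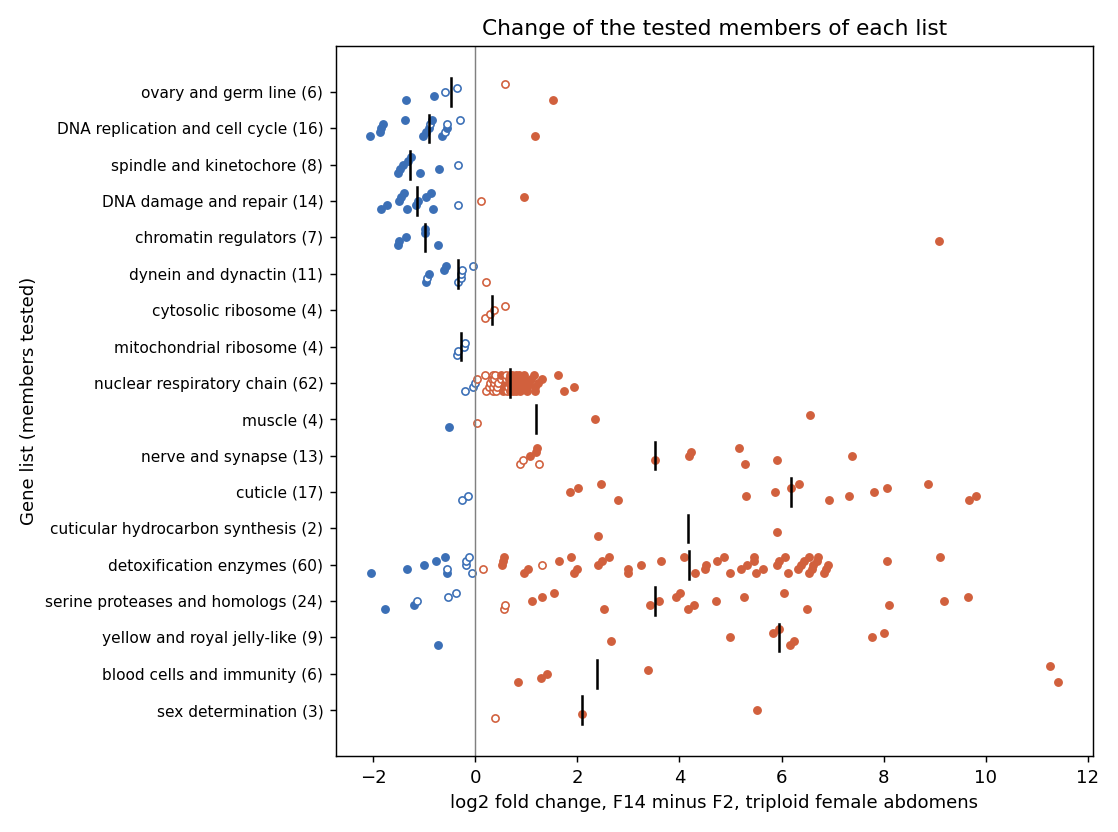
Log2 fold change, F14 minus F2, of every tested member of 18 gene lists, with filled points for called genes, open points for genes that did not pass the test and a vertical bar at the list median. Cell cycle, spindle, repair and chromatin lists lie left of 0 with medians between -0.90 and -1.28, and cuticle, nerve, detoxification, protease and yellow lists lie right with medians from 3.51 to 6.18.

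Muscle genes did not move together. Tm1 was at 528 to 551 CPM at F2 and at 4090, 3235, 1617 and 2053 CPM at F14, a log2 fold change of 2.35 ± 0.26 (adjusted p = 4.9e-05) with no overlap. Zasp66, a structural gene of the muscle Z-disc, was at 2.81, 2.11, 1.90, 1.79 and 6.14 CPM at F2 and at 452, 333, 123 and 208 CPM at F14 (log2 fold change 6.56 ± 0.53, adjusted p = 9.3e-06). Both genes were highest in D86 and lowest in D89. Tm2, the other tropomyosin gene, fell from 110 to 125 CPM to between 69.7 and 92.2 CPM (log2 fold change -0.52 ± 0.12, adjusted p = 0.0039). Srf, a transcription factor gene, was at 31.8 to 39.1 CPM and 27.6 to 47.8 CPM (0.04 ± 0.19, adjusted p = 0.87). On CPM scaled over all 79 libraries, Zasp66 averaged 2.76 in F2 triploids, 233 in F14 triploids and 49.7 in F14 diploids.

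Nerve genes rose wherever they were called. Of 22 in the table, 13 passed the filter on low counts, and 10 of these were higher and none lower. Without the 3 that were under 1 CPM in every F2 library, 7 of 10 were higher. Syt1 was at 3.97, 3.26, 4.69, 4.20 and 4.23 CPM at F2 and at 123, 99.8, 34.8 and 48.3 CPM at F14 (log2 fold change 4.23 ± 0.37, adjusted p = 1.4e-05). The F14 libraries again ranked D86, D87, D90A and D89. The sodium channel gene Para went from a mean of 0.929 to 10.8 CPM, the calcium-activated potassium channel gene Slo from 19.4 to 44.2 CPM (a call lost on TPM and without D86 or D90A, with adjusted p values from 0.057 to 0.064), and the ligand-gated chloride channel genes GRD and pHCl from 0.596 and 0.706 CPM to 21.6 and 43.1 CPM. The acetylcholine receptor subunit nAChRa10 had 3 counts in all F2 libraries together and lay between 2.03 and 11.8 CPM at F14. The subunits nAChRa3, nAChRa5 and nAChRb3 did not pass the test, with log2 fold changes of 0.88, 0.94 and 1.25.

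Body wall genes showed wide gaps. Of 46 cuticle genes, 17 passed the filter, and 15 of those rose and none fell. However, 11 of the 17 were under 1 CPM in every F2 library and could hardly fall. Of the other 6, 5 rose. CPR19, a cuticle protein gene of the chitin-binding RR family, was at 15.7, 11.7, 16.9, 13.4 and 14.95 CPM at F2 and at 2422, 1344, 1472 and 4088 CPM at F14 (log2 fold change 7.33 ± 0.39, adjusted p = 1.4e-06). Unlike Tm1 and Syt1, its highest library was D90A. The same library was highest for the summed list, at 5176 CPM, and for CPR22 at 87.2 CPM, whereas the apidermin gene apd-1 was highest in D87 at 84.8 CPM and had 5 counts in all F2 libraries together. The chitinase gene Cht5 went from a mean of 0.151 to 35.7 CPM. CPR39 and CPR40 did not pass the test, with means of 39.1 and 32.8 CPM and of 0.488 and 0.439 CPM at F2 and F14. Reads of near-identical family members can be split between them by the counting, so single cuticle genes are uncertain.

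The hydrocarbon-forming P450 genes, which act in the oenocytes to make the waxes of the cuticle surface, both rose. CYP4G43 was at 421 to 517 CPM at F2 and at 4444, 2256, 1826 and 1754 CPM at F14 (log2 fold change 2.40 ± 0.28, adjusted p = 6.9e-05). CYP4G44 was at 1.70 to 3.74 CPM at F2 and at 288, 198, 128 and 60.9 CPM at F14. No F2 library overlapped an F14 library for either gene. The 16 yellow and royal jelly-like genes, several of which act in pigmentation of the cuticle, had 9 tested members, 6 of them under 1 CPM in every F2 library, of which 8 rose and Mrjpl3 fell from a mean of 49.0 to 29.4 CPM. Y-b went from 1.03 to 1.81 CPM to 105.8, 26.6, 15.1 and 196 CPM, and Mrjpl7 from 0.346 to 0.816 CPM to 76.9, 15.6, 8.69 and 39.6 CPM.

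Detoxification enzymes mostly rose. Of 73 genes, 60 passed the filter, and 47 of these rose and 6 fell. Leaving aside the 22 tested members under 1 CPM in every F2 library, which could hardly fall, 26 of 38 (68.4%) rose and 6 (15.8%) fell, beside 28.2% and 33.5% of all genes tested outside that range. The carboxylesterase gene CCE-A3 was at 0.734 to 1.34 CPM at F2 and at 24.3, 28.3, 45.1 and 45.3 CPM at F14 (log2 fold change 5.20 ± 0.30, adjusted p = 1.8e-06). CYP4AB6 and CYP4AB12 rose by 5.45 and 5.51 on the log2 scale, from means of 0.883 and 0.941 CPM. CYP9AG3 had 3 counts in all F2 libraries together and lay between 1.06 and 36.5 CPM at F14. The 6 that fell were CYP6CK3, CYP9AG6 and the glutathione transferase genes GstS8, GstT3, GstO1 and Gstcd, with log2 fold changes between -2.05 and -0.56. Gstcd and Jtb, a gene of the cell cycle list, had the same log2 fold change (0.166451) in the edgeR fit with the ovary marker covariate. Their falls may therefore not be separate. These enzyme families hold close relatives too, so the counts of single members are uncertain for the reason given for cuticle genes.

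Immune genes rose, with a wide spread among the F14 libraries. All 6 tested members of 7 rose, and their median was 2.39; 3 of them were under 1 CPM in every F2 library. The defensin gene Def1-2, which encodes a secreted antimicrobial peptide, was at or under 0.816 CPM in every F2 library and at 2761, 105.4, 36.7 and 680 CPM in D86, D87, D89 and D90A. Def1-1 had 9 counts in all F2 libraries together and was at 824, 12.4, 3.35 and 110 CPM at F14. Both defensins were highest in D86 and lowest in D89, and they spread further within F14 than Tm1 or Syt1 did. When D86 was left out, the log2 fold change of Def1-1 moved from 11.43 to 8.93 and that of Def1-2 from 11.25 to 9.55. The immune signalling gene Imd changed less and evenly, from 14.7 to 18.3 CPM to 25.8, 33.8, 28.4 and 30.1 CPM (log2 fold change 0.84 ± 0.16, adjusted p = 0.001). The prophenoloxidase gene ppo1, of the melanisation pathway, went from 0.142 to 0.259 CPM to between 1.29 and 3.38 CPM.

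Serine proteases and their inactive homologs gave 17 rises and 2 falls among 24 tested members of 51. Of these, 10 were under 1 CPM in every F2 library and could hardly fall, and the other 14 gave 8 rises and 2 falls. SP100, SP64 and SPH103, among the largest rises of all, had 6, 20 and 9 counts in all F2 libraries together and reached 106.7, 105.6 and 110 CPM in D86, and were lowest in D89 at 3.05, 2.29 and 1.94 CPM. SP110 was more even, at 0.864 to 1.43 CPM at F2 and 29.1, 28.9, 15.3 and 23.7 CPM at F14. The venom protein gene C1q-VP was at 0.982 to 3.33 CPM at F2 and at 58.3, 74.6, 45.1 and 34.99 CPM at F14 (log2 fold change 4.76 ± 0.38, adjusted p = 8.9e-06). It averaged 25.7 CPM in F14 diploid abdomens on the scale of all 79 libraries, and 296 CPM in the abdomens of F3 diploid males, which have no venom gland, so its level is not particular to that gland here.

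Fat body and hormone genes had few tested members. The hexamerin genes Hex109 and Hex83, which encode storage proteins, rose from means of 0.752 and 0.932 CPM to 4.16 CPM each, and the lipid droplet gene Lsd2 was at 133 to 238 CPM and at 183, 168, 302 and 415 CPM and did not pass the test (adjusted p = 0.084). Akhr, the receptor for the hormone that mobilises fat, was at 0.223 to 0.569 CPM at F2 and at 24.1, 15.1, 25.7 and 25.2 CPM at F14 (log2 fold change 5.58 ± 0.35, adjusted p = 2.1e-06). Its 4 F14 libraries lay closer together than those of the muscle and nerve genes. The ecdysone receptor gene Ecr rose from 13.3 to 16.5 CPM to between 26.3 and 45.1 CPM. Most chemoreceptor genes were silent: 256 of 263 were under 1 CPM in every F2 library and 242 in every F14 library, and 9 were tested. Of those, Or275 and Gr2 rose and Or17, Or133 and Or135 fell, and the calls of Or17 and Or133 were lost with heads in the fit (adjusted p = 0.16 and 0.055). These counts hold for the filter used: with no filter 29 of 161 members rose and 3 fell, with a median of 2.37 in place of -0.88, under DESeq2 15 rose and 3 fell, and without D89 6 of 14 rose and 3 fell.

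Many genes of energy supply rose, by unequal amounts. Of 62 tested nuclear genes of the respiratory chain, 39 rose and none fell, with a median log2 fold change of 0.68 and values from -0.20 for Ndufab1 to 1.93 for Uqcr11. With heads in the fit 25 rose. The ATP synthase subunit genes Atp5a1 and Atp5b rose by 1.17 ± 0.19 and 1.08 ± 0.18 (adjusted p = 4.5e-04 and 4.6e-04), Atp5a1 from between 728 and 1021 CPM at F2 to 2287, 2204, 2176 and 1458 CPM at F14. The succinate dehydrogenase gene SdhB went from 52.2 to 71.5 CPM to 338, 233, 147 and 99.1 CPM. The summed list ran from 14190 to 16919 CPM at F2 and from 15016 to 32701 CPM at F14, where D90A lay within the F2 range. In F14 diploids it ran from 14206 to 16761 CPM. That diploid range was scaled over all 79 libraries and the triploid ranges over the 9, so it cannot be placed exactly against them. On TPM, 28 members rose and 1 fell, and the median was 0.38 where that of all genes was -0.15. Ribosomal protein genes gave no call in this fit: the 4 cytosolic ones were between 0.18 and 0.57 and the 4 mitochondrial ones between -0.37 and -0.21, and the cytosolic Rpl39, Rpl41 and Rpl6 turned to -0.08, -0.37 and -0.10 on TPM. These counts depended on the setting: without D90A all 4 cytosolic genes were called higher, with a median of 0.52, and all 4 mitochondrial genes were called lower on TPM, with a median of -0.54, as were 2 with F14 diploids in the fit.

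The sex determination genes downstream of the founding knockdown were read in every library. Dsx (doublesex), the transcription factor gene at the end of the pathway, was at 9.51, 11.7, 12.2, 9.95 and 14.2 CPM at F2 and at 750, 788, 336 and 235 CPM at F14. This was a log2 fold change of 5.52 ± 0.39 (adjusted p = 4.6e-06) with no overlap. Tra (transformer), whose protein directs female splicing of Dsx, was at 29.7, 44.9, 39.8, 36.9 and 35.5 CPM at F2 and at 189, 183, 144 and 116.5 CPM at F14 (log2 fold change 2.08 ± 0.18, adjusted p = 1.2e-05). Fru (fruitless), which acts in the nervous system in courtship in flies, overlapped between groups at 30.3 to 61.1 CPM and 46.5 to 71.8 CPM (0.39 ± 0.23, adjusted p = 0.16). On the scale of all 79 libraries, Dsx averaged 176 CPM in F14 diploid abdomens and 232 CPM in F2 triploid heads, so the 10.7 CPM of the F2 triploid abdomens was the lowest of these groups. Gene totals do not separate the female and male splice forms.

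Tissue share was then read from genes that the compared libraries did not choose. Genes were classed by levels in F14 diploid female abdomens, F14 diploid female heads and F15 haploid male abdomens, none of which enter the comparison. This grouping was chosen after the data had been seen. A gene at 5 CPM or more in diploid female abdomens and at least 4-fold above both heads and male abdomens was classed as a female abdomen gene, which gave 1244 genes. Of the 1229 tested, 764 (62.2%) were lower at F14 and 58 were higher, with a median log2 fold change of -0.83. Their share of all counts was 26.5, 25.03, 25.1, 25.2 and 26.1% in the F2 libraries and 9.18, 13.3, 18.02 and 16.5% in D86, D87, D89 and D90A, against 19.2 to 20.8% in F14 diploid abdomens. F14 diploids lay below every F2 library and above every F14 triploid library, but these same diploid libraries served to choose the class. Their share is therefore not an independent reference, here or for the classes below.

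Genes of heads and of male abdomens did the reverse. Of 1260 tested genes that were at least 4-fold higher in heads than in female abdomens, 1128 (89.5%) rose and 13 fell, with a median of 3.997. They took 0.988 to 1.10% of counts at F2, 7.72, 5.73, 3.28 and 5.63% in D86, D87, D89 and D90A, and 2.10 to 2.68% in F14 diploids. Of the head genes, 542 were under 1 CPM in every F2 library and could hardly fall, and of the other 718, 594 (82.7%) rose and 13 fell. Of 597 tested male abdomen genes, 525 (87.9%) rose and 9 fell, with a median of 4.18, and 283 of the 349 outside that range (81.1%) rose. They took 0.976 to 1.03% of counts at F2 and 2.60 to 6.45% at F14. D86 had the lowest share of female abdomen genes and the highest share of both other classes, and D89 the opposite. Tested genes shared by abdomens of both sexes gave 39 rises and 39 falls with a median of -0.11. The 6775 tested genes of no class gave 1961 rises (28.9%) and 2052 falls (30.3%), so calls were also common outside these classes. The sum of each gene list was compared too, and for 19 of 23 lists the F14 diploid mean lay between the means of the triploid generations. The exceptions were the yolk and fat body, eye, respiratory chain and mitochondrial ribosome lists. Triploid sums were scaled over the 9 libraries and diploid sums over all 79, so the order is uncertain where sums lie close. That held for the germ line, respiratory chain and both ribosome lists.

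**Figure D3:**
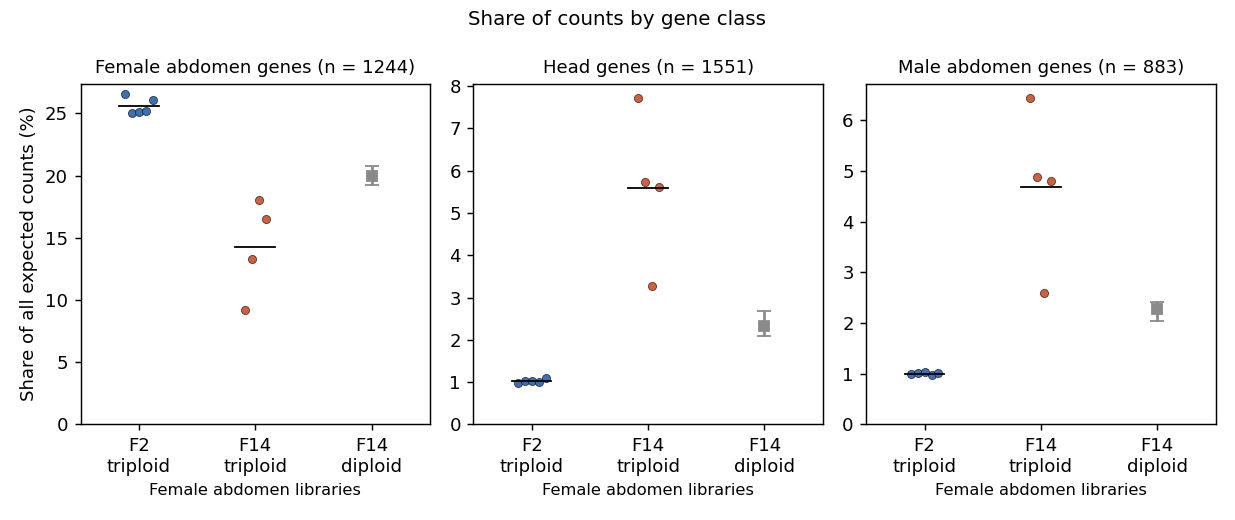
Share of all expected counts taken by genes classed outside the comparison as female abdomen, head or male abdomen genes, with a point for each triploid library, a bar at the group mean, and a grey square and whiskers for the mean and range of the 5 F14 diploid abdomens. Female abdomen genes hold 25.03 to 26.5% at F2 and 9.18 to 18.02% at F14, and head genes hold 0.988 to 1.10% and 3.28 to 7.72%. The diploid abdomens also served to choose the classes, so their shares are not independent of that choice.

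Head libraries of triploid females of the same line and generations, which the labels do not tie to the same wasps, were used to ask whether the line as a whole had shifted between F2 and F14. In the joint fit, 346 genes were higher and 516 lower at F14 in heads. The change in abdomens differed from that in heads for 4984 of 11361 genes (43.9%), with 3345 differences (29.4%) positive and 1639 (14.4%) negative. This test reuses the 9 abdomen libraries, so it is not independent of the comparison above. Without D38 the negative differences dropped to 1050, and the share of positive ones went from 67.1 to 76.2%. On TPM the differences were fewer, with 2221 positive and 817 negative.

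For Dsx the difference was 5.96 ± 0.49 on the log2 scale (adjusted p = 7.9e-08), with a change of -0.61 in heads. CPR19 differed by 6.08 ± 0.77 (adjusted p = 7.2e-06) and Syt1 by 3.28 ± 0.54 (adjusted p = 1.0e-04). Tm1 did not pass this test: it rose by 3.28 on the log2 scale in heads too, and its difference was -1.10 ± 0.61 (adjusted p = 0.15). Neither did oskar, which fell by 2.11 in heads, from a mean of 22.03 to 5.24 CPM, nor cycB and nanos, which are close to 0 in heads. Rises in heads were not limited to Tm1. Of the tested list members, 2 of 4 muscle genes, 7 of 27 cuticle genes and 1 of 7 immune genes were called higher in F14 heads, and none lower. The protease genes SPH103, SP100 and SP128 had the largest positive differences, at 12.18, 11.54 and 11.26, with CYP9AG3 next at 10.87. Each was near 0 in F2 abdomens and lower at F14 than at F2 in heads, where only the fall of SP128 was called (adjusted p = 0.0041). The largest negative differences among the genes that met the naming conditions were those of Cenp-a (-2.74 ± 0.49), Or135 (-2.38 ± 0.93), Bora (-2.27 ± 0.57) and Smc2 (-2.22 ± 0.50). Cenp-a was at 13.1 CPM in F2 heads and at 28.5 CPM in F14 heads. The call of Or135 was lost without D37, D38, D39, D86 or D87, with adjusted p values from 0.052 to 0.091, and with no filter (0.051).

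Diploid males of the line gave the other reference. In their abdomens 1700 genes were higher and 892 lower at F15 than at F3. The female change differed from the male change for 7135 of 11682 genes (61.1%), with 4200 (36%) positive and 2935 (25.1%) negative, again with the same female libraries. Dsx differed by 5.63 ± 0.43 (adjusted p = 2.2e-08), Syt1 by 4.66 ± 0.40, Tm1 by 2.67 ± 0.35 and Zasp66 by 5.74 ± 0.55, and in males the changes of these 4 genes did not pass the test and lay between -0.50 and 0.73. The same held for CPR19, which differed by 7.73 ± 0.48 and changed by -0.48 in males.

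Among the largest positive differences from males were those of CPR37 (12.12 ± 1.504), SP100 (10.06 ± 1.11), SP64 (9.58 ± 1.32) and apd-1 (9.01 ± 1.28). CPR37 fell in males, from a mean of 18.4 to 3.16 CPM (adjusted p = 0.034). The largest negative differences were those of WRNexo (-3.83 ± 0.70), SPH90 (-2.86 ± 1.17), Lobe (-2.81 ± 0.33) and Na-pi-t (-2.54 ± 0.49). WRNexo, Lobe and Na-pi-t fell in female abdomens and rose in male abdomens, by 1.90, 1.26 and 1.81 on the log2 scale. The call of SPH90 was lost without D36, D37, D38, D39, D40, D86 or D87, with adjusted p values from 0.051 to 0.067.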

How the data were processed

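Bulk poly(A) RNA-seq of 79 libraries was read from the tables of expected counts (14621 genes) and TPM (14613 genes) that the authors deposited. The submitters' processing notes name STAR 2.7.11a and RSEM 1.3.1, and no genome build was given in the sources used here. Of the deposited expected counts, 17.8% were not whole, and all were rounded. The deposited TPM are scaled to 1 sum per library and served in an alternative alone. All 14621 gene names matched the RefSeq table of assembly Nvit_psr_1.1.

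Tests used edgeR 4.0.16 in R 4.3.3 (robust quasi-likelihood F test, filterByExpr at 10 counts per library and 15 in total, TMM), with Benjamini-Hochberg adjustment over all genes tested and calls at 0.05. Each SE was the absolute log2 fold change divided by the square root of the F statistic, not an SE given by the model. The fit held the 9 triploid abdomen libraries, and each difference test held 4 groups. F2 diploid female abdomens were left out because they are reported to hold head-like markers, and their levels are not shown here. No diploid generation contrast in abdomens was therefore made. Alternatives were DESeq2 1.42.0, relative log expression scaling, no filter, limma-trend (limma 3.58.1) on log2(TPM + 1), further groups in the fit, an ovary marker covariate (mean log2 CPM of oskar and nanos) and leaving out each library. The tests were first tried on simulated counts. The kit was not stated to keep strand, so overlapping genes cannot be told apart. Depth, 16.9 M to 24.2 M counts per library, left the spread between libraries as the limit on precision.

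Lists were matched by symbol, since the tables pair no product names: 23 of 30 lists had members. Members, lists and tests were chosen with earlier results of these data known. Named genes were the 12 largest rises and 12 largest falls among called genes with a symbol, at least 5 CPM in the higher group and no overlap; a fixed set of markers; up to 4 members per list by adjusted p and the member of each marker list with the highest mean CPM; and the 4 largest differences per direction. Further members were named after their values were seen, to account for exceptions in each list. Some genes that met these rules are not reported here. The split of tested genes at 1 CPM in every F2 library was chosen after seeing the data. Vitellogenin, a planned marker, had no matching symbol. Replicate names are not shared between groups.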

Additional observations from a re-analysis of the deposited data

Results flagged for a closer look

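Single libraries stood far from the rest of their group for 6 of the gene and list levels examined, or 5.36% of them (Dixon's criterion at 95%), which is about the 1 in 20 that chance alone gives. The opsin gene Lop1 was at 6.97 CPM in F2 library D38, against 0.192 to 0.691 CPM in the other 4, and this gene also set the sum of the eye and head list there, at 6.97 CPM. Zasp66 was at 6.14 CPM in F2 library D40, against 1.79 to 2.81 CPM in the others. Among F14 libraries, Def1-1 was at 824 CPM in D86, the summed chemoreceptor genes were at 120 CPM in D86, and the summed cytosolic ribosomal protein genes were lowest in D90A at 3392 CPM.

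The change in triploid female abdomens differed from that in triploid female heads, by the test of the difference itself, for SPH103 (12.18 on the log2 scale), SP100 (11.54), SP128 (11.26), CYP9AG3 (10.87), Smc2 (-2.22), Bora (-2.27), Or135 (-2.38) and Cenp-a (-2.74). It differed from that in diploid male abdomens for CPR37 (12.12), SP100 (10.06), SP64 (9.58), apd-1 (9.01), Na-pi-t (-2.54), Lobe (-2.81), SPH90 (-2.86) and WRNexo (-3.83). The 4 positive differences in each comparison rest on F2 abdomen libraries with 20 or fewer counts of the gene in all, so their size depends on the fit.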

How the results depend on the processing

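The counts of 3711 rises and 2877 falls moved by less than 1.5 times under DESeq2 (4788 and 3104), relative log expression scaling, no filter, TPM and further groups in the fit. With each library left out they ran from 3450 to 3963 and from 2490 to 3406. The exception was the ovary marker covariate, with 689 and 33. Its values in F14 libraries (6.25 to 7.11) and F2 libraries (7.93 to 8.19) do not overlap, so the generation effect is extrapolated, and the median of all genes went to 0.39. Of these calls, 496 were shared with the main ones in the same direction. Against heads, 3345 positive and 1639 negative differences became 2221 and 817 on TPM and ran from 2956 to 3448 and from 1050 (without D38) to 1820 with a library left out. Against males they ran from 3938 to 4313 and from 2505 to 3053.

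Under the covariate the medians turned for the lists of ovary and germ line (1.29), DNA replication and cell cycle (0.83), spindle (0.13), DNA repair (0.63), respiratory chain (-0.76), cytosolic ribosome (-0.69) and chromatin (0.077). Genes that turned there were cycB (2.40), Hop2 (1.26), Cdk1 (1.14), fzy (1.10), Bora (1.10), SPH90 (1.05), nanos (0.81), Na-pi-t (0.73), Gnf1 (0.65), Egl (0.62), Or133 (0.59), Smc2 (0.58), Melk (0.33), Eif2ak1 (0.33), DLC-A (0.28), Or135 (0.22), Smc3 (0.17), Pol-iota (0.090), Lobe (0.070), Mus201 (0.043) and Scm (0.030), and Uqcr11 (-0.24), SdhB (-0.46), Rpl39 (-0.63), Rpl7a (-0.62), Rpl41 (-0.83), Rpl6 (-0.74) and serpin5 (-0.13). None of these genes passed the test there. The covariate was built from oskar and nanos, which are both members of the germ line list. The turns of that list's median and of nanos are therefore in part set by the covariate itself. Elsewhere, among the named genes, only ones that were not called turned. Srf turned with no filter (-0.029), on TPM (-0.17), with F14 diploids (-0.081) or heads added (-0.13), without D87 (-0.04) and without D89 (-0.15). Rpl39 (-0.075), Rpl41 (-0.37) and Rpl6 (-0.10) turned on TPM. Medians also turned outside the covariate. The cytosolic ribosome median was -0.088 on TPM. Under DESeq2, with no filter and with heads added, the chemoreceptor median was 2.04, 2.37 and 1.98. In the same settings the eye and head median was 0.27, 0.45 and 0.34. More members of these lists were tested there. The cause was not tested. No paired analysis was possible because the groups compared share no replicate names.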
